A study of Mus musculus with 16 samples.

Results

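The transcriptomes of 4 Hap-I adult western diet hearts were compared with those of 3 C57 adult hearts, which together make 7 of the 16 libraries in the series. Hap-I mice are of the C57/BL6 strain and carry haplotype I of the human gene for the angiotensin II type 1 receptor as a transgene, and C57 adult mice are of the same strain without it. The other libraries are 5 of Hap-I aged hearts with a western diet and 4 of Hap-I aged hearts with no diet named. The label of each of the 4 tested hearts states the western diet, whereas the design text of the series names that group Hap-I adult with no diet. The sample labels were followed, and genotype and, by those labels, diet differ together between the groups, so their parts cannot be told apart. Sex, litter, exact age, batch and the hour at which hearts were taken are not in the labels, nor is the promoter of the transgene. The design text says that each group is made of animals, so p-values measure the spread between animals.

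Of 30153 genes in the deposited table, 11415 had at least 1 TPM (a relative transcript level corrected for transcript length) in at least 3 of the 16 libraries and were tested. Levels are given as scaled TPM, which is the TPM divided by a size factor for each library. Genes at 1 TPM or more numbered 9553 to 10637 in the Hap-I adult western diet libraries and 10216 to 10586 in the C57 adult libraries. Mitochondrially encoded transcripts took 38.7% to 46.1% of TPM in Hap-I adult western diet hearts and 31.1% to 40.3% in C57 adult hearts. Y-linked transcripts summed to 0.232 and 0.104 TPM in Hap-I adult western diet replicates 1 and 2, to 29.6 and 50.04 TPM in replicates 3 and 4, and to 19.3 to 33.9 TPM in the C57 adult hearts. Atrial muscle also varied between the pieces: 10 of 11 atrial cardiomyocyte markers were tested, 0 were called, and their sum ran from 241.1 to 1450 scaled TPM in Hap-I adult western diet hearts and from 538.8 to 7210 in C57 adult hearts. The scaled TPM of Myl7, an atrial form of a myosin subunit, were 399.7, 0.978, 0.739 and 114 in Hap-I adult western diet replicates 1 to 4 and 1843, 26.8 and 885 in C57 adult replicates 1 to 3. Because of these splits, the count of all genes called against C57 adult hearts and the gene list counts were made in further fits. These had a term for Y-linked transcripts, a term for atrial markers, or 1 library left out in turn. Not all of these further counts are given below. The count at a fold change of 2 and the counts against the aged Hap-I groups were made only with all 16 libraries and without these terms. In whole tissue, fewer cells of a type and less RNA per cell cannot be told apart.

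The adult western diet hearts differed from C57 adult hearts in 394 genes, which is 3.45% of the genes tested, at an adjusted p under 0.05 by limma. Of these, 223 were higher (1.95% of genes tested) and 171 were lower (1.5%). The median absolute log2 fold change of the called genes was 0.62, and 73 passed a fold change of 2, with 30 higher and 43 lower. The median log2 fold change over all genes tested was 0.0078. With 4 and 3 hearts, the groups did not overlap in 2058 genes, 18% of those tested. Without scaling between libraries the median was -0.13 and the split changed to 24 higher and 94 lower among 118 called genes, so that 20.3% were higher, against 56.6% with scaling. Leaving out 1 library moved the count to 78 without C57 adult replicate 1, 105 without C57 adult replicate 3, 178 without Hap-I adult western diet replicate 3 and 181 without replicate 2. A set of 59 genes (35 higher, 24 lower) was called in all 7 fits that left out 1 library, and these 59 were also called with the Y-linked term and with the atrial term. Of them, 40 were called with only the 2 groups fitted, 35 among the libraries that hold Y-linked transcripts and 32 without scaling. Of the 59, 4 share most of their sequence with other genes, which leaves their values uncertain.

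**Figure D1:**
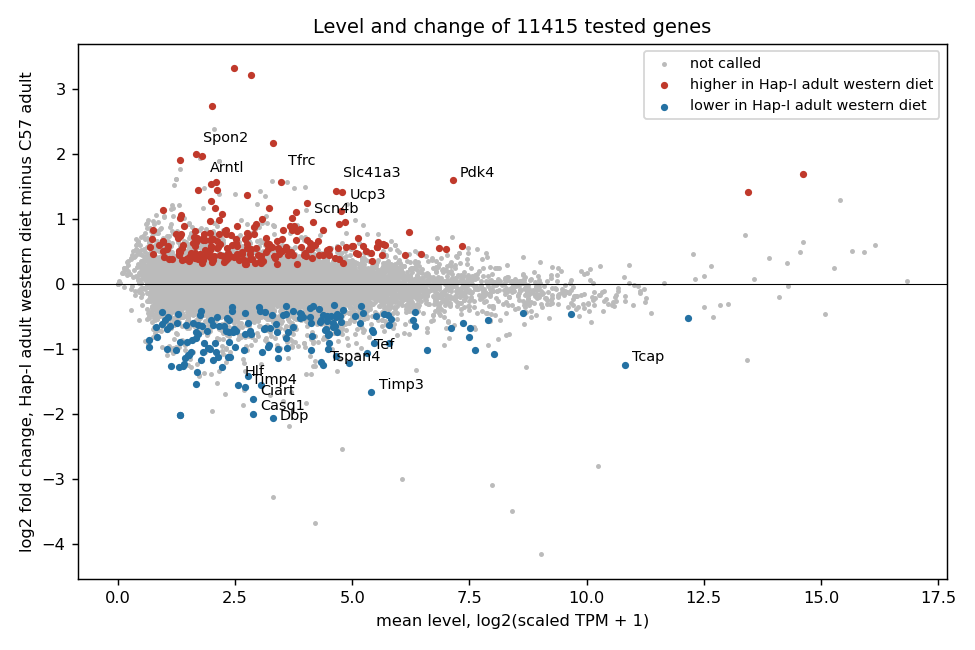
Change against level for the 11415 genes tested. The horizontal axis is the log2 of the mean scaled TPM of the 2 groups plus 1, and the vertical axis is the log2 fold change of Hap-I adult western diet over C57 adult. Red points are the 223 genes called higher and blue points the 171 called lower in Hap-I adult western diet hearts. Pdk4 and Tcap are the labelled genes at the highest levels.

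The heart keeps its own circadian clock. The transcription factors BMAL1 (gene Arntl) and CLOCK or NPAS2 bind E-box elements and drive the Per and Cry genes, Nr1d1, Nr1d2, Ciart and the output factors Dbp, Tef and Hlf. PER and CRY proteins inhibit BMAL1, the NR1D proteins repress Arntl through ROR elements, and DBP, TEF and HLF activate genes through D-box elements. In the mouse heart Arntl and the output genes are known to peak at opposite times of day.

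Clock genes differed in both directions by their role. In Hap-I adult western diet hearts 9 of the 12 tested clock repressors and outputs were lower and none was higher, against 1.5% of all genes called lower. Of 7 clock activators 3 were higher and none was lower, against 1.95% of all genes called higher. All 12 repressors and outputs had negative log2 fold changes, with a median of -1.12. The gene lists used here and below were chosen with earlier results of these data known. Their counts beside the share of all genes are therefore descriptions and no test. Arntl stood at 6.08, 4.11, 3.39 and 4.72 scaled TPM in the 4 Hap-I adult western diet hearts, against 0.404, 0.675 and 0.181 in the 3 C57 adult hearts. Every Hap-I heart lay far above every C57 heart. The gene (chr7:113207465-113314126, plus strand, GRCm38) rose by 1.97 ± 0.19 (SE) on the log2 scale, a 3.90-fold difference of TPM + 1, with a limma adjusted p of 8.74e-05. Npas2, a partner of BMAL1, averaged 1.15 ± 0.18 scaled TPM in Hap-I adult western diet hearts and 0.206 ± 0.142 in C57 adult hearts (SD, n = 4 and n = 3), a log2 fold change of 0.84 with an adjusted p of 0.00395 from limma. Clock, the other partner, averaged 2.36 ± 0.78 scaled TPM in Hap-I adult western diet hearts and 0.657 ± 0.423 in C57 adult hearts (log2 fold change 1.02, limma adjusted p = 0.0199). Npas2 was called in every fit that left out 1 library. The call of Clock was lost without Hap-I adult western diet replicate 2, C57 adult replicate 1 or C57 adult replicate 3, with limma adjusted p of 0.0572, 0.0826 and 0.107. It was also lost with the Y-linked term (0.0524) and with the atrial term (0.0826), each of which left 2 activators called, and in libraries that hold Y-linked transcripts (0.0589), where 1 activator was called. Among the other activators tested, Cry1, Nfil3 and Rora were not called.

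The output factors moved the other way. Dbp, a D-box activator (chr7:45705088-45710203, plus strand), stood at 3.12, 3.90, 3.30 and 1.38 scaled TPM in Hap-I adult western diet hearts, against 17.7, 12.5 and 14.4 in C57 adult hearts. The groups were far apart, and Dbp fell by 2.05 on the log2 scale (SE 0.24, limma adjusted p = 0.000282). Hlf (chr11:90336536-90390895, minus strand) stood at 1.88, 1.35, 2.09 and 2.62 in Hap-I adult western diet hearts and at 8.77, 8.78 and 5.84 in C57 adult hearts, and had the smallest adjusted p of the list (8.4e-05 by limma, log2 fold change -1.56). Tef, the third factor of that family, averaged 24.99 ± 4.07 scaled TPM in Hap-I adult western diet hearts and 52.85 ± 4.04 in C57 adult hearts (log2 fold change -1.06, limma adjusted p = 0.00164). All 3 were called in every fit that left out 1 library.

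Among the repressors, Ciart, an inhibitor of the BMAL1 and CLOCK pair, averaged 2.36 ± 0.72 scaled TPM in Hap-I adult western diet hearts and 10.3 ± 1.1 in C57 adult hearts, a log2 fold change of -1.77 (limma adjusted p = 0.000282). Per2 (chr1:91415982-91459324, minus strand) stood at 0.314, 0.166, 0.184 and 0.534 scaled TPM in Hap-I adult western diet hearts, against 2.04, 1.90 and 2.31 in C57 adult hearts. The levels are low, but the groups did not overlap and the fall of 1.25 on the log2 scale had a limma adjusted p of 0.000677. Ciart and Per2 were called in every fit that left out 1 library. Per3 (log2 fold change -1.17), Nr1d2 (-0.80) and Cry2 (-0.67) were lower with limma adjusted p of 0.0147, 0.0208 and 0.0117, which reached 0.0705, 0.0828 and 0.06 in the fits without 1 library. Per1 was lower by 1.41 (limma adjusted p = 0.0329), with 2.06, 1.15, 2.48 and 6.39 scaled TPM in Hap-I adult western diet hearts and 8.64, 7.52 and 9.69 in C57 adult hearts, so that Hap-I replicate 4 lay nearest to the C57 hearts. Nr1d1, which encodes REV-ERB alpha, averaged 22.8 ± 5.9 in Hap-I adult western diet hearts and 31.1 ± 3.6 in C57 adult hearts and was not called (limma adjusted p = 0.115). Bhlhe40 and Bhlhe41 were not called either. The count of lower repressors and outputs ran from 5 (without C57 adult replicate 1) to 10 (without Hap-I adult western diet replicate 4). It was 8 with the Y-linked term, 6 with the atrial term and 5 among the libraries that hold Y-linked transcripts.

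**Figure D2:**
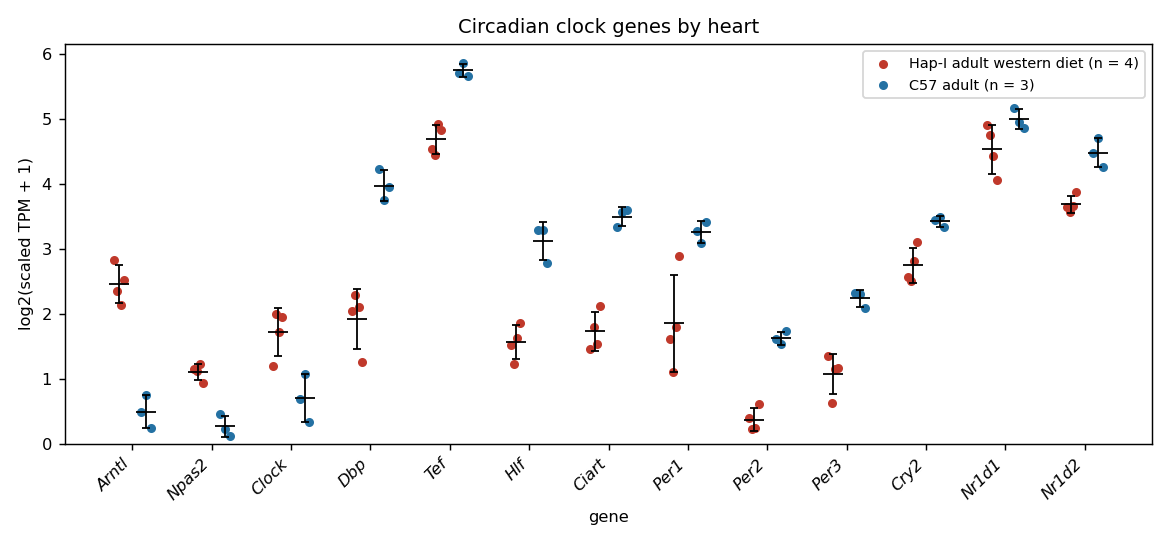
Clock genes in each heart. Points are single hearts on a log2(scaled TPM + 1) axis, Hap-I adult western diet (n = 4) in red on the left and C57 adult (n = 3) in blue on the right of each gene, with the mean and SD of the log values in black. Arntl, Npas2 and Clock are higher and Dbp, Tef, Hlf, Ciart, Per1, Per2, Per3, Cry2 and Nr1d2 lower in every Hap-I adult western diet heart, while the groups overlap for Nr1d1.

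Since these genes moved together, the promoter windows that RefSeq gives for them (GRCm38.p6, 250 bases before to 50 after each annotated start) were searched for clock elements on both strands. The letters searched were CACGTG for the E-box, TTATGTAA for the D-box and TAGGTCA for the ROR element. Of the 12 repressor and output genes, 10 had a window (not Per2 and Bhlhe40). These genes have 12 windows, of which 5 held an E-box, against 7.15% of all 32851 windows. The 5 windows belong to 4 genes, Ciart, Tef (both windows), Per1 and Bhlhe41, and Bhlhe41 was not called. A D-box lay in 0.938% and a ROR element in 2.61% of all windows. A match is a description of the letters and no evidence that a factor binds there. The windows of Ciart, Tef, Per1 and Per3 are shown because these genes were called lower and their windows hold such elements, and the second window of Arntl because it holds a ROR element, with the searched letters in capitals.
Ciart, chr3:95882179-95882478, minus strand: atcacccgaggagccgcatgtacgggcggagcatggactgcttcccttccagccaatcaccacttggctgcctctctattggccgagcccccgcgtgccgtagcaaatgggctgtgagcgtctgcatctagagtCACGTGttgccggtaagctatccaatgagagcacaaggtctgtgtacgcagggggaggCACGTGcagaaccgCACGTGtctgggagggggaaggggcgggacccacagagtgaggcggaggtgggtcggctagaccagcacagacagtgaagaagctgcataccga
Tef, chr15:81802423-81802722, plus strand: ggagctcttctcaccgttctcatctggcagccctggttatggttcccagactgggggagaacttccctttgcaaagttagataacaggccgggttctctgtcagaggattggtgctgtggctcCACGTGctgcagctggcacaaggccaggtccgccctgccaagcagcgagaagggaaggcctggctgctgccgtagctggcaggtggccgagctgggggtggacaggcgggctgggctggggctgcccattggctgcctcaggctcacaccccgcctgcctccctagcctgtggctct
Per1, chr11:69098699-69098998, plus strand: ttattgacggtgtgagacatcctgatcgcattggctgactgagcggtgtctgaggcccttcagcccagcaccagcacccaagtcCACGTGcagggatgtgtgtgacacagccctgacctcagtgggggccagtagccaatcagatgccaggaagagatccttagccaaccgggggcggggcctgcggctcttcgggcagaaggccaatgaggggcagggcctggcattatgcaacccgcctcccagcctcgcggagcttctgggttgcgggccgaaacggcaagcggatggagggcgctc
Per3, chr4:151044616-151044915, minus strand: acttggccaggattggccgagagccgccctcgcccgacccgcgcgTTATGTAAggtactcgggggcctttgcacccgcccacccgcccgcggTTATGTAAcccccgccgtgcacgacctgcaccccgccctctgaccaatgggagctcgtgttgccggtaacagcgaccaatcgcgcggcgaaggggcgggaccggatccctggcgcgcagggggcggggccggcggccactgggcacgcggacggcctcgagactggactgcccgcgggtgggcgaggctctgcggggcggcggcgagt
Arntl, chr7:113207261-113207560, plus strand: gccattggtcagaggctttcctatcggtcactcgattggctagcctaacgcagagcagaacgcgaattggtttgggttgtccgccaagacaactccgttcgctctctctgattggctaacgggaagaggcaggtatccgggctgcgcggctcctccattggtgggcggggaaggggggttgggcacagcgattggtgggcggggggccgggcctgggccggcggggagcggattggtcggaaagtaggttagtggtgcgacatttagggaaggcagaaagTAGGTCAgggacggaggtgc
Ciart held 3 E-boxes, which began 116, 58 and 44 bases before the start. Tef held 1 E-box in each of its windows, Per1 held 1, and Per3 held 2 D-boxes and no E-box. The windows of Dbp, Hlf, Cry2 and Nr1d2, which were called lower as well, held none of the 3 elements in these bases. Neither did the second window of Per1. Among genes that were not called, the window of Bhlhe41 and that of Cry1 held 1 E-box each, and that of Nfil3 held a ROR element.

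The working heart burns mostly fatty acids, and PPAR alpha raises the genes of fatty acid use when lipid supply is high. Pyruvate dehydrogenase kinase 4, encoded by Pdk4, switches off glucose oxidation, UCP3 is a mitochondrial carrier that follows fatty acid load, and EHHADH works in peroxisomal beta-oxidation. These 3 were the members called higher among 45 tested genes of fatty acid oxidation and PPAR alpha targets, against 1.95% of all genes called higher, and none was lower. Pdk4 (chr6:5483351-5496309, minus strand) stood at 250, 220.2, 163 and 200.9 scaled TPM in Hap-I adult western diet hearts, against 51.2, 115.3 and 51.5 in C57 adult hearts. C57 replicate 2, the one with the fewest atrial transcripts, lay nearest to the Hap-I hearts. The log2 fold change was 1.60 ± 0.30 (SE), 3.03-fold, with a limma adjusted p of 0.0104. Ucp3 (chr7:100472990-100486432, plus strand) stood at 50.1, 43.2, 33.4 and 27.4 in Hap-I adult western diet hearts and at 10.5, 23.9 and 9.42 in C57 adult hearts, with the same C57 heart in between (log2 fold change 1.42, limma adjusted p = 0.0161). Ehhadh averaged 5.18 ± 0.57 scaled TPM in Hap-I adult western diet hearts and 2.58 ± 0.96 in C57 adult hearts (log2 fold change 0.82, limma adjusted p = 0.0118). Without C57 adult replicate 1 the limma adjusted p of Pdk4, Ucp3 and Ehhadh was 0.0674, 0.0868 and 0.0755, and without C57 adult replicate 3 it was 0.0607, 0.0867 and 0.065. With the atrial term it was 0.0416 for Pdk4, 0.0726 for Ucp3 and 0.045 for Ehhadh. The 3 genes were also not called among the libraries that hold Y-linked transcripts.

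Angptl4, a PPAR target that inhibits lipoprotein lipase, stood at 16.6, 14.1, 8.96 and 5.35 scaled TPM in Hap-I adult western diet hearts, against 3.85, 6.21 and 3.81 in C57 adult hearts. The groups overlapped in 1 heart of each, and the limma adjusted p was 0.0683. It was 0.0142 without Hap-I adult western diet replicate 4, which was the lowest of that group. Replicates 1 and 2, the highest of that group, had 0.232 and 0.104 TPM of Y-linked transcripts. The median log2 fold change of the 45 fatty acid genes was 0.07, near that of all genes, and most genes of the mitochondrial beta-oxidation chain, among them Acadm, Cpt1b, Hadha and Hadhb, were not called. Decr2, a peroxisomal 2,4-dienoyl-CoA reductase outside that list, was higher in Hap-I adult western diet hearts (5.37 ± 0.67 scaled TPM) than in C57 adult hearts (2.00 ± 0.33), with a limma adjusted p of 0.00287, and was called without each library in turn. Srebf1, a transcription factor of lipid synthesis, averaged 10.2 ± 0.7 in Hap-I adult western diet hearts and 4.63 ± 0.60 in C57 adult hearts (log2 fold change 1.00, limma adjusted p = 0.00118). It was the only call among 25 tested genes of cholesterol and fatty acid synthesis, against 1.95% of all genes called higher. The median of these 25 genes was -0.05.

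Glucose genes gave 1 higher and 2 lower members among 32 tested, against 1.95% and 1.5% of all genes. Their median log2 fold change was -0.06. Slc2a1, the glucose transporter GLUT1, stood at 2.84, 2.84, 2.61 and 3.21 scaled TPM in Hap-I adult western diet hearts and at 5.59, 4.98 and 5.72 in C57 adult hearts. It fell by 0.73 on the log2 scale (limma adjusted p = 0.00753) and was called without each library in turn. Pygb, a glycogen phosphorylase, was lower by 0.60 (limma adjusted p = 0.0387). Pfkfb2 and Pfkfb3 both encode enzymes that set fructose 2,6-bisphosphate, an activator of glycolysis, and they went opposite ways. Pfkfb2, the heart form, averaged 8.47 ± 1.45 scaled TPM in Hap-I adult western diet hearts and 4.49 ± 0.55 in C57 adult hearts (log2 fold change 0.78, limma adjusted p = 0.0184). Pfkfb3 was outside the glucose list and was counted with hypoxia and angiogenesis. It averaged 1.12 ± 0.18 in Hap-I adult western diet hearts and 2.87 ± 0.37 in C57 adult hearts (log2 fold change -0.86, limma adjusted p = 0.00599). The calls of Pygb and Pfkfb2 were lost without some libraries, with limma adjusted p of 0.0955 and 0.0676 without C57 adult replicate 1. They were 0.0825 and 0.0869 without C57 adult replicate 3 and 0.0989 and 0.0534 without Hap-I adult western diet replicate 2. That of Pygb was also 0.106 without Hap-I adult western diet replicate 3 and 0.102 without C57 adult replicate 2. None of 19 tested tricarboxylic acid cycle genes was called (median -0.08).

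Nuclear genes of oxidative phosphorylation had mostly negative values: 3 of 52 were called lower, against 1.5% of all genes, none was higher, and 47 of the 52 had negative values around a median log2 fold change of -0.18. The called members included Ndufa9 of complex I (log2 fold change -0.67, limma adjusted p = 0.0274) and Atp5b of the ATP synthase (-0.51, limma adjusted p = 0.0338). None of the 3 was called under quantile normalization, where the median was -0.02, nor without C57 adult replicate 1, 2 or 3 or Hap-I adult western diet replicate 2 or 3, where the limma adjusted p of Ndufa9 was 0.0642 to 0.0867. The count was also 0 with the Y-linked term, with the atrial term, with only the 2 groups fitted and in libraries that hold Y-linked transcripts. The mitochondrially encoded transcripts had a median of 0.49 over 13 tested genes, 11 of them positive. That median was 0.20 without Hap-I adult western diet replicate 2, 0.17 in libraries that hold Y-linked transcripts, 0.29 with the atrial term, 0.31 without scaling and 0.06 under quantile normalization, where 1 of the 13 was called lower. Only mt-Nd3 among them was called, at 19210, 19660, 12090 and 14700 scaled TPM in Hap-I adult western diet hearts and 5749, 6622 and 5677 in C57 adult hearts (log2 fold change 1.42, limma adjusted p = 0.00123). That value is uncertain, because 98.1% of the 31-base words of mt-Nd3 occur in another annotated transcript and the authors' assignment of reads could split between the copies.

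**Figure D3:**
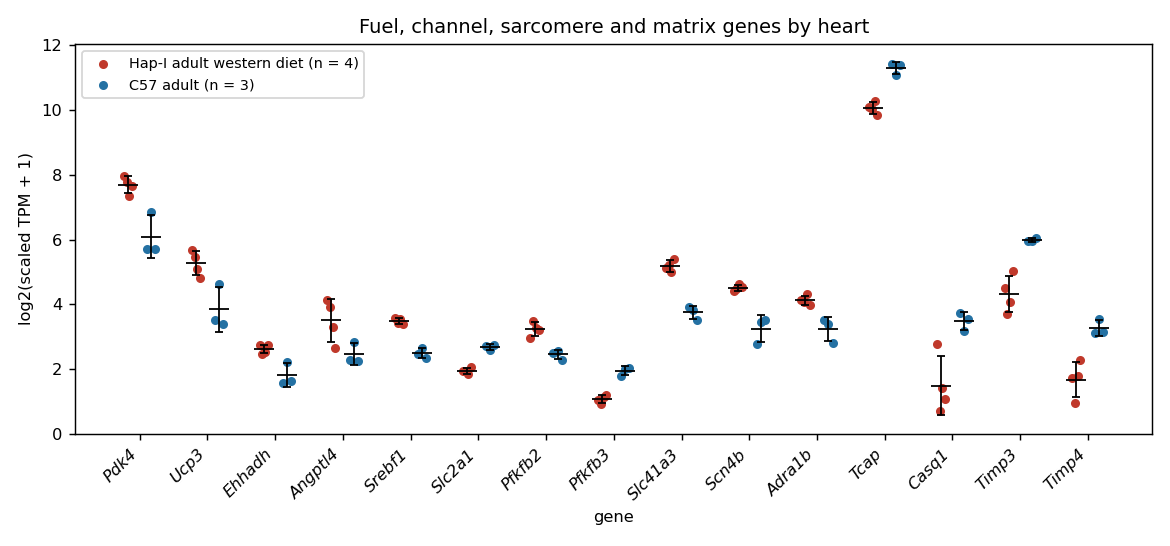
Genes of fuel use, conduction, sarcomere and matrix in each heart, on a log2(scaled TPM + 1) axis. Hap-I adult western diet hearts (n = 4, red, left) and C57 adult hearts (n = 3, blue, right) are shown as points with the mean and SD of the log values. Tcap, Timp3 and Slc41a3 separate the groups by wide gaps, and 1 C57 heart lies near the Hap-I hearts for Pdk4, Ucp3 and Ehhadh.

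Of 22 tested ion channels and connexins, 2 were higher and 1 was lower, against 1.95% and 1.5% of all genes. Their median log2 fold change was -0.0096. Scn4b, an auxiliary beta subunit of the cardiac sodium channel (chr9:45138395-45154152, plus strand), stood at 20.1, 21.04, 23.8 and 22.2 scaled TPM in Hap-I adult western diet hearts, against 5.91, 10.01 and 10.4 in C57 adult hearts. The Hap-I hearts lay close together and above every C57 heart, and the log2 fold change of 1.25 ± 0.17 (SE) had a limma adjusted p of 0.00118 and was called without each library in turn. Kcnd3, a pore subunit of the transient outward potassium current, was higher by 0.48 (limma adjusted p = 0.0288). Kcnip2, its accessory subunit, averaged 43.79 ± 12.1 scaled TPM in Hap-I adult western diet hearts and 21.003 ± 3.05 in C57 adult hearts and was not called (limma adjusted p = 0.0616). Kcnj8, an ATP-sensitive potassium channel subunit that is also a pericyte marker, was lower (4.30 ± 0.32 scaled TPM in Hap-I adult western diet hearts and 8.08 ± 1.31 in C57 adult hearts, limma adjusted p = 0.0117). The call of Kcnj8 was lost without C57 adult replicate 3 (0.0657), and that of Kcnd3 without that library (0.137), C57 adult replicate 1 (0.0769) or Hap-I adult western diet replicates 2 or 3 (0.07 and 0.0706). Cntn2, a contactin known as a marker of the conduction system in the mouse, was at 0.457 ± 0.371 in Hap-I adult western diet hearts and 2.45 ± 0.33 in C57 adult hearts (limma adjusted p = 0.00255).

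Adrenergic and endothelin signalling had 1 higher gene of 21 tested, against 1.95% of all genes, and none lower (median 0.03). That gene, Adra1b, encodes the alpha 1B adrenergic receptor, which raises contractility and growth signalling in myocytes. It stood at 16.7, 15.8, 18.9 and 14.7 scaled TPM in Hap-I adult western diet hearts and at 10.3, 9.40 and 5.98 in C57 adult hearts (log2 fold change 0.90, limma adjusted p = 0.0036), and was called without each library in turn. Slc41a3, a magnesium carrier of mitochondria (chr6:90604725-90646412, plus strand), stood at 34.0, 36.3, 30.8 and 41.1 in Hap-I adult western diet hearts against 14.1, 13.1 and 10.5 in C57 adult hearts. With a log2 fold change of 1.43 ± 0.16 (SE) and a limma adjusted p of 0.000208, it kept its call under every alternative tried.

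The sarcomere list had a median of -0.27 and 14 negative values. It held 1 lower gene of 18 tested, against 1.5% of all genes, and none higher. That gene, Myom2, encodes an M-band protein and averaged 167.3 ± 38.5 scaled TPM in Hap-I adult western diet hearts and 347.9 ± 35.4 in C57 adult hearts (log2 fold change -1.07, limma adjusted p = 0.0152). Its limma adjusted p was 0.0545 without C57 adult replicate 1 and 0.058 without C57 adult replicate 3. Tcap, which encodes telethonin, a Z-disc protein that caps titin (chr11:98383811-98384953, plus strand), was outside that list. It stood at 1098, 1035, 1233 and 917.1 in Hap-I adult western diet hearts, against 2751, 2159 and 2697 in C57 adult hearts. The highest Hap-I value was well under the lowest C57 value, and Tcap fell by 1.24 on the log2 scale (SE 0.15, limma adjusted p = 0.000519). Calcium handling had 1 lower gene of 23, against 1.5% of all genes (median -0.0067). That gene was Casq1, the skeletal muscle form of calsequestrin. It stood at 5.88, 0.626, 1.65 and 1.11 scaled TPM in Hap-I adult western diet hearts and 12.3, 8.03 and 10.7 in C57 adult hearts (log2 fold change -1.996, limma adjusted p = 0.0143). The call of Casq1 was lost without C57 adult replicate 1 (limma adjusted p = 0.0738) or 3 (0.0606). Beside it, 1 of 4 tested skeletal muscle markers, Pvalb, was lower, at 0.036 to 0.21 scaled TPM in Hap-I adult western diet hearts and 0.359 to 1.53 in C57 adult hearts. Mylpf was at 0 to 0.868 in Hap-I adult western diet hearts and 0.478 to 1.37 in C57 adult hearts, and Actn3 at 0 to 0.0922 in Hap-I adult western diet hearts and 0.066 to 0.446 in C57 adult hearts, while Myh1 and Myh4 were listed at 0 in all C57 hearts. The sum of all these markers ran from 43.0 to 187.4 in Hap-I adult western diet hearts and from 45.2 to 103.8 in C57 adult hearts, and nearly all of it was Acta1, which the heart also expresses. The part of such cells in the result was not tested.

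Most matrix genes had negative values and few were called. Of 38 tested genes of collagens and fibrosis, 2 were lower, against 1.5% of all genes, and none was higher. Of these 38, 33 had negative values, and the median was -0.46. TIMP proteins inhibit matrix metalloproteinases. Timp3 (chr10:86300372-86349506, plus strand) stood at 21.5, 12.1, 15.9 and 31.6 scaled TPM in Hap-I adult western diet hearts and at 61.5, 61.1 and 65.7 in C57 adult hearts. The C57 hearts lay within a narrow range above every Hap-I heart, and Timp3 fell by 1.67 on the log2 scale (SE 0.25, limma adjusted p = 0.00287). Timp4, which was not on the list and is the member known for its high level in heart, averaged 2.37 ± 1.18 in Hap-I adult western diet hearts and 8.73 ± 1.69 in C57 adult hearts (log2 fold change -1.59, limma adjusted p = 0.00287). Both were called without each library in turn. Comp, a cartilage matrix protein, was lower by 1.35 (limma adjusted p = 0.0485) with 4.48, 1.32 and 5.32 scaled TPM in C57 hearts, and lost its call without C57 adult replicate 1 (0.189) or 3 (0.213) and without Hap-I adult western diet replicates 1, 2 or 3 (0.0509, 0.129 and 0.115). Col1a1 averaged 6.28 ± 2.41 in Hap-I adult western diet hearts and 12.6 ± 4.1 in C57 adult hearts, and Col3a1 averaged 46.4 ± 18.5 in Hap-I adult western diet hearts and 75.9 ± 11.8 in C57 adult hearts. These main fibrillar collagens were not called (limma adjusted p = 0.232 and 0.34).

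Marker sums of the cells that make matrix were lower beside it. For the marker counts here, the shares over all genes tested were 1.95% called higher and 1.5% called lower. The 13 fibroblast markers, which include Col1a1 and Col3a1, summed to between 431.0 and 818.5 scaled TPM in Hap-I adult western diet hearts. In C57 adult hearts they summed to between 971.6 and 1244. Of them, 1 was called lower (Wif1) and none higher, with a median of -0.46. Most of the sum was Gsn (110.3 to 369.6 in Hap-I adult western diet hearts and 462.6 to 661.9 in C57 adult hearts) and Dcn (168.6 to 231.3 and 282.1 to 296.1). While 12 markers had negative values, Lum was positive (18.25 to 29.86 and 14.84 to 20.36). The ranges of Pdgfra, Tcf21, Dpt, Mfap5 and Pi16 overlapped. The smooth muscle and pericyte markers summed to between 223.0 and 244.9 in Hap-I adult western diet hearts and between 266.3 and 271.9 in C57 adult hearts. Of 12 tested, 2 were lower, Myh11 and Kcnj8. Endothelial markers had a median of -0.45 over 13 genes and 1 call, Cldn5, a tight junction gene that was higher (15.7 ± 3.5 scaled TPM in Hap-I adult western diet hearts and 7.93 ± 1.96 in C57 adult hearts). None of 13 macrophage, 7 adipocyte, 6 erythrocyte, 6 Schwann cell or neuron and 1 lymphocyte markers tested was called, nor any of 4 Y-linked ones. Of 3 tested epicardial markers, Krt19 was lower. The limma adjusted p of Wif1, Myh11, Cldn5 and Krt19 reached 0.118, 0.0795, 0.0705 and 0.201 in the fits without 1 library. Of the 7 tested adipocyte markers 6 had negative values, with a median of -0.69 and a sum of 479.0 to 826.6 scaled TPM in Hap-I adult western diet hearts and 670.6 to 852.1 in C57 adult hearts, most of it Fabp4. Cfd, which encodes adipsin, was not called (limma adjusted p = 0.0899). It stood at 0 to 1.09 in Hap-I adult western diet hearts and at 7.98, 1.49 and 7.02 in C57 adult hearts. The groups did not overlap for Cfd, as for 18% of all genes tested. Adipoq reached 0.801 in Hap-I adult western diet hearts and 3.67 in C57 adult hearts. Plin1 was listed at 0 in every heart of both groups. The part of these cell types in the matrix values was not tested.

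The transgene of the Hap-I mice is a human angiotensin receptor gene, and its own transcript was not analysed here. None of 11 tested genes of the mouse renin-angiotensin system was called (median 0.01). Agtr1a, the mouse receptor, stood at 14.5, 12.5, 12.8 and 10.4 scaled TPM in Hap-I adult western diet hearts and at 10.5, 13.7 and 9.13 in C57 adult hearts, so that the groups overlapped (log2 fold change 0.17, limma adjusted p = 0.535). Ace averaged 6.53 ± 3.55 in Hap-I adult western diet hearts and 12.7 ± 2.2 in C57 adult hearts (limma adjusted p = 0.143). Agt averaged 0.751 ± 0.284 in Hap-I adult western diet hearts and 1.04 ± 0.32 in C57 adult hearts (limma adjusted p = 0.435), and Mme, a peptidase of angiotensins, had a log2 fold change of 0.53 (limma adjusted p = 0.0827). Of 14 tested cardiac stress and fetal genes, 1 was lower, against 1.5% of all genes, and none higher (median -0.15). The called gene was Tnnt1, the slow skeletal troponin T, at 12.9 ± 1.8 in Hap-I adult western diet hearts and 20.1 ± 5.1 in C57 adult hearts (limma adjusted p = 0.042). Its call was lost without Hap-I adult western diet replicate 1, 2 or 3 (0.0832, 0.0549 and 0.109), without C57 adult replicate 1 or 3 (0.0688 and 0.198), with the Y-linked term (0.131) and with the atrial term (0.125). Nppa, which is also an atrial marker, was at 491.9, 124.2, 30.6 and 470.0 in Hap-I adult western diet hearts and at 3436, 180.7 and 2845 in C57 adult hearts, following the atrial markers in the C57 hearts (limma adjusted p = 0.204). Of its 31-base words 56.8% occur elsewhere. Nppb averaged 150.9 ± 116 in Hap-I adult western diet hearts and 124.7 ± 85.3 in C57 adult hearts (limma adjusted p = 0.878). Its direction was negative without Hap-I adult western diet replicate 2 (-0.26) or C57 adult replicate 2 (-0.35). Myh7, the slow myosin heavy chain, averaged 24.2 ± 13.5 in Hap-I adult western diet hearts and 30.8 ± 6.8 in C57 adult hearts and was not called (limma adjusted p = 0.618).

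Glucocorticoid targets included 6 lower genes of 19 tested, against 1.5% of all genes, and none higher, with a median of -0.49. They were Klf9, Sult1a1, Fkbp5, Per1, Tsc22d3 and Zbtb16, of which Per1 also belongs to the clock. Fkbp5, a cochaperone of the glucocorticoid receptor that its hormone induces, stood at 2.51, 2.02, 2.09 and 4.05 scaled TPM in Hap-I adult western diet hearts, against 5.15, 6.58 and 5.40 in C57 adult hearts (log2 fold change -0.90, limma adjusted p = 0.0286). Zbtb16 stood at 1.04, 1.45, 1.36 and 3.35 in Hap-I adult western diet hearts and at 4.77, 6.75 and 5.12 in C57 adult hearts (log2 fold change -1.28, limma adjusted p = 0.0463). In both, Hap-I replicate 4 was the highest of its group and still under every C57 heart. The count was 0 without Hap-I adult western diet replicate 2 or C57 adult replicate 1, 1 without Hap-I adult western diet replicate 3, C57 adult replicate 2 or C57 adult replicate 3, and 2 without Hap-I adult western diet replicate 1. It was 1 with the Y-linked term, 0 with the atrial term and 0 among libraries with Y-linked transcripts, where the median was -0.18.

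Heat shock and unfolded protein response genes were lower in 5 of 35 cases, against 1.5% of all genes, and higher in none, with 31 negative values and a median of -0.49. All 5 belong to the stress response of the endoplasmic reticulum. Herpud1, which takes part in the degradation of misfolded proteins there, stood at 55.0, 48.5, 60.6 and 93.2 scaled TPM in Hap-I adult western diet hearts, against 116.7, 149.2 and 115.7 in C57 adult hearts (log2 fold change -1.01, limma adjusted p = 0.0184). Calr, Creld2, Manf and Ddit3 were lower by 0.81, 0.73, 0.71 and 0.66. Hspa5, the main chaperone of that compartment, averaged 167.7 ± 58.5 in Hap-I adult western diet hearts and 308.1 ± 20.6 in C57 adult hearts and was not called (limma adjusted p = 0.0982). The count was 0 without C57 adult replicate 1 or 3, 2 without Hap-I adult western diet replicate 2 or 3, 3 without replicate 1 and 10 without replicate 4. It was 1 with the Y-linked term and 0 with the atrial term.

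The other lists gave few calls, beside shares of 1.95% higher and 1.5% lower over all genes. Interferon response had 1 lower gene of 29 (Gbp2, log2 fold change -0.98, limma adjusted p = 0.0456) and a median of -0.03. No gene was called among 15 of MHC class I and II (median -0.42), 29 of inflammation and complement (-0.27), 50 ribosomal protein genes (-0.003), 32 of the proteasome, autophagy and atrophy ligases (-0.12), 17 of the p53 pathway and cell cycle (0.05), 7 replication-dependent histone genes (0.0045) and 19 of RNA splicing (0.14). Immediate early genes had 1 higher of 16 (median 0.12), which was Fos, at 6.26, 7.95, 4.07 and 3.27 scaled TPM in Hap-I adult western diet hearts and 1.62, 0.781 and 0.872 in C57 adult hearts (log2 fold change 1.57, limma adjusted p = 0.0378). Antioxidant genes had Gsr, glutathione reductase, higher by 0.47 and Nfe2l2, the factor NRF2, lower by 0.49 among 33 (median -0.03). Hypoxia and angiogenesis had Egln1, an oxygen-sensing prolyl hydroxylase, higher by 0.55 and Pfkfb3 lower among 19 (median -0.17). The calls of Gbp2, Fos, Gsr, Nfe2l2 and Egln1 were each lost without C57 adult replicate 1 (limma adjusted p = 0.127, 0.0828, 0.133, 0.0832 and 0.142) or 3 (0.194, 0.136, 0.15, 0.107 and 0.149).

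**Figure D4:**
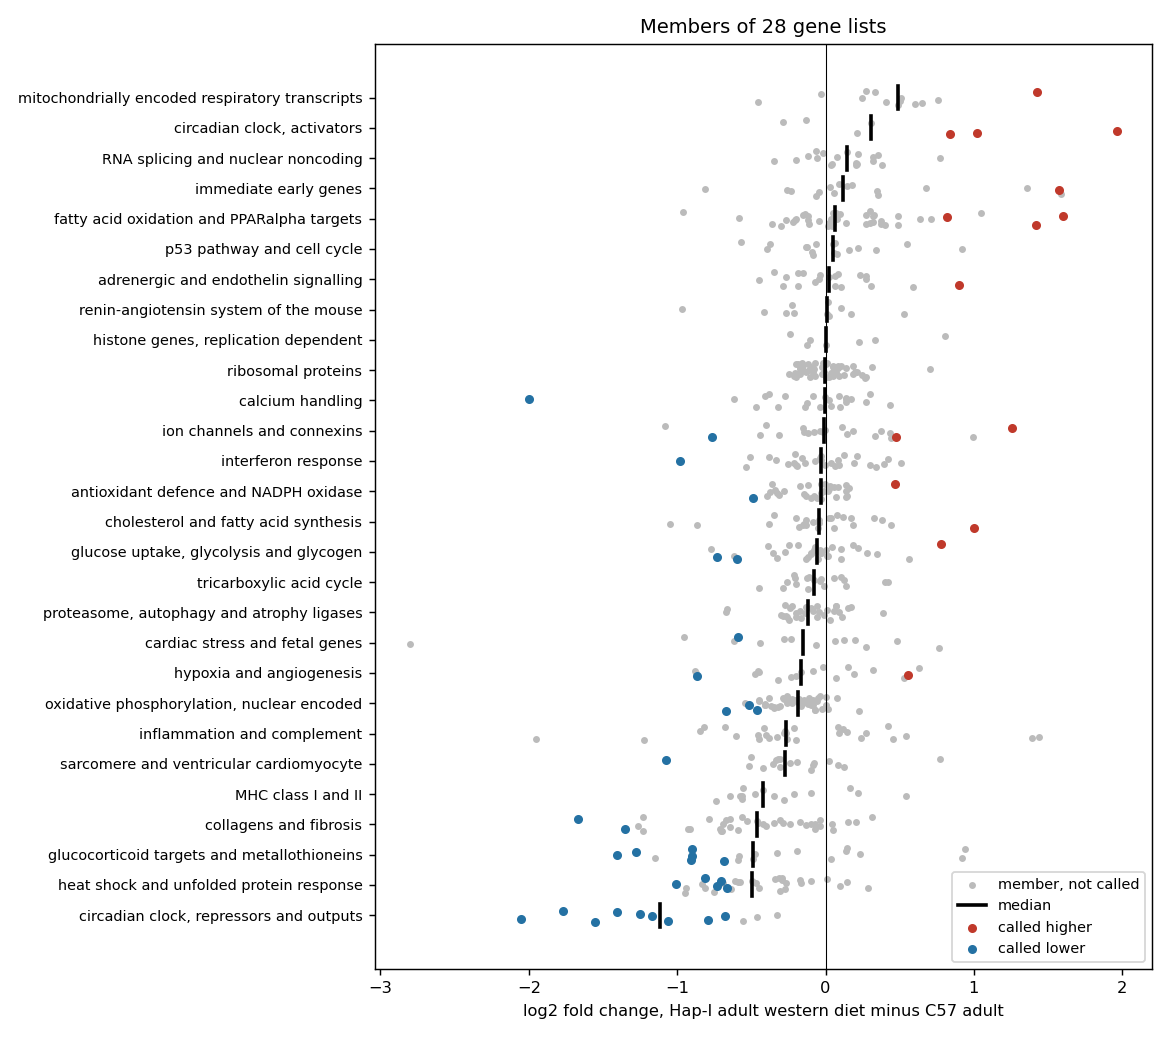
Log2 fold change of Hap-I adult western diet over C57 adult for the tested members of the 28 gene lists. Each point is a gene, with red for those called higher, blue for those called lower and grey for those not called, and the black bar is the median of the list. Clock repressors and outputs have the lowest median (-1.12) and 9 blue points, and mitochondrially encoded transcripts the highest (0.49) with 1 red point.

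Several genes outside the lists were among the largest changes. Tfrc, the transferrin receptor that takes up iron, stood at 18.4, 19.2, 12.3 and 13.4 scaled TPM in Hap-I adult western diet hearts, against 4.21, 5.31 and 4.28 in C57 adult hearts (log2 fold change 1.57, limma adjusted p = 0.0388). The groups did not come near each other, yet the call was lost in 6 of the 7 fits without 1 library, with limma adjusted p of 0.0566 to 0.134. Arhgef19, a guanine nucleotide exchange factor, averaged 16.6 ± 2.5 in Hap-I adult western diet hearts and 7.60 ± 0.64 in C57 adult hearts (log2 fold change 1.02, limma adjusted p = 0.00023). Tspan4, a tetraspanin, averaged 11.4 ± 2.2 in Hap-I adult western diet hearts and 28.2 ± 4.1 in C57 adult hearts (log2 fold change -1.24, limma adjusted p = 0.000175). These last 2 genes kept their calls under every alternative tried. Sh3glb1 (1.45), Ighg2c (1.38), Lrtm1 (1.13) and Golga4 (0.96) were higher and Rhobtb1 (-1.19), Xdh (-1.13), App (-1.12) and Nmb (-1.12) lower. Without C57 adult replicate 1 the limma adjusted p of these 8 genes was 0.0962, 0.0501, 0.06, 0.101, 0.124, 0.06, 0.198 and 0.115. Eif3j2 (1.11) and Ahcy (-1.55) were called too, but 94.9% and 71.4% of their 31-base words occur elsewhere, which leaves their values uncertain. The same holds for Gm4737 (3.32, limma adjusted p = 1.52e-10) and Pcna-ps2 (1.91, limma adjusted p = 4.86e-07), with 95.6% and 75.2% of words shared. Gm4737 had the largest change among the 59 genes called in every fit without 1 library. Of those 59, 4 share most of their words: Gm4737, Pcna-ps2, Eif3j2 and mt-Nd3.

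Some of the 59 genes called in every fit that left out 1 library are given here, and were picked after their values were seen. Gata4, a cardiac transcription factor, averaged 44.3 ± 4.1 scaled TPM in Hap-I adult western diet hearts and 29.0 ± 2.2 in C57 adult hearts (log2 fold change 0.59, limma adjusted p = 0.00485). Prox1, another transcription factor of the heart, averaged 6.55 ± 0.82 in Hap-I adult western diet hearts and 3.07 ± 0.52 in C57 adult hearts (log2 fold change 0.89, limma adjusted p = 0.00257). Crhr2, a receptor for urocortins, averaged 11.9 ± 0.9 in Hap-I adult western diet hearts and 7.14 ± 0.95 in C57 adult hearts (log2 fold change 0.67, limma adjusted p = 0.00472). Pde4a, a cyclic AMP phosphodiesterase, was higher by 0.68. Ramp2, the partner of the adrenomedullin receptor, was lower, at 31.3, 27.3, 30.4 and 29.8 scaled TPM in Hap-I adult western diet hearts and 59.8, 49.0 and 61.1 in C57 adult hearts (log2 fold change -0.90, limma adjusted p = 0.000282). Slc1a5, a glutamine transporter, was lower by 1.04 (limma adjusted p = 0.00119). Spon2, a secreted matrix protein, was at 5.32, 2.82, 4.64 and 3.54 in Hap-I adult western diet hearts, against 0.219, 0 and 0.589 in C57 adult hearts (limma adjusted p = 0.00217).

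The same adult hearts were set against the 2 aged Hap-I groups for these genes. Y-linked transcripts summed to 38.6 to 52.6 TPM in aged hearts. In aged western diet hearts they summed to 0.226, 0.265, 0.494, 27.6 and 20.6 TPM in replicates 1 to 5. The mean log2 level of Myl7, Myl4, Sln and Mybphl was 0.68 to 8.29 in aged hearts. It was 0.53 to 2.53 in aged western diet hearts. The comparisons with the aged groups were not repeated with a Y-linked or atrial term or without a library. Against aged Hap-I hearts on a western diet 273 genes were called (2.39% of those tested), and against aged Hap-I hearts 244 (2.14%). These comparisons share the adult western diet hearts with the first, so their values are given side by side and not counted together. Arntl averaged 4.57 ± 1.14 scaled TPM in Hap-I adult western diet hearts, 2.17 ± 0.66 in aged western diet hearts, 1.24 ± 0.37 in aged hearts and 0.420 ± 0.247 in C57 adult hearts. It was higher in the adult western diet hearts than in either aged group (limma adjusted p = 0.025 and 0.00218). Dbp averaged 2.92 ± 1.08 in Hap-I adult western diet hearts, 8.11 ± 2.03 in aged western diet hearts, 8.42 ± 1.85 in aged hearts and 14.9 ± 2.6 in C57 adult hearts. It was lower in the adult western diet hearts than in either aged group (limma adjusted p = 0.0152 and 0.0118). Hlf and Per2 were lower than in both aged groups as well. Not all clock genes did so. Ciart, Tef and Npas2 were called against aged hearts but not against aged western diet hearts (limma adjusted p = 0.071, 0.0759 and 0.173). Per1 and Clock were called against neither aged group. Clock averaged 2.36 scaled TPM in adult western diet hearts, 3.12 in aged western diet hearts and 2.53 in aged hearts. Pdk4 averaged 208.5 ± 36.5 in the adult western diet hearts, 111.5 ± 40.3 in aged western diet hearts, 33.9 ± 5.0 in aged hearts and 72.7 ± 36.9 in C57 adult hearts. It differed from the aged hearts (limma adjusted p = 0.000169) and was not called against the aged western diet hearts (0.0616). Ucp3 was higher than in aged western diet hearts (0.0261) and in aged hearts (0.00347). Angptl4 was higher than in aged hearts by 2.04 (0.00218).

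Other genes had levels in the adult western diet hearts close to those of the aged Hap-I groups. Scn4b averaged 21.8 ± 1.6 scaled TPM in adult western diet hearts, 23.5 ± 3.9 in aged western diet hearts, 16.2 ± 2.3 in aged hearts and 8.78 ± 2.49 in C57 adult hearts, and was not called between the adult western diet hearts and either aged group. Arhgef19 averaged 16.6 in adult western diet hearts, 15.5 in aged western diet hearts, 17.02 in aged hearts and 7.60 in C57 adult hearts. For Ramp2 the means were 29.7 in adult western diet hearts, 29.1 in aged western diet hearts, 30.5 in aged hearts and 56.6 in C57 adult hearts. Gata4 averaged 44.3 in adult western diet hearts, 41.8 in aged western diet hearts, 44.3 in aged hearts and 29.0 in C57 adult hearts. Slc41a3 was higher in the adult western diet hearts than in aged western diet hearts (limma adjusted p = 0.0275) and not called against aged hearts (0.219). A p that misses the threshold does not show that the levels were equal.

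**Figure D5:**
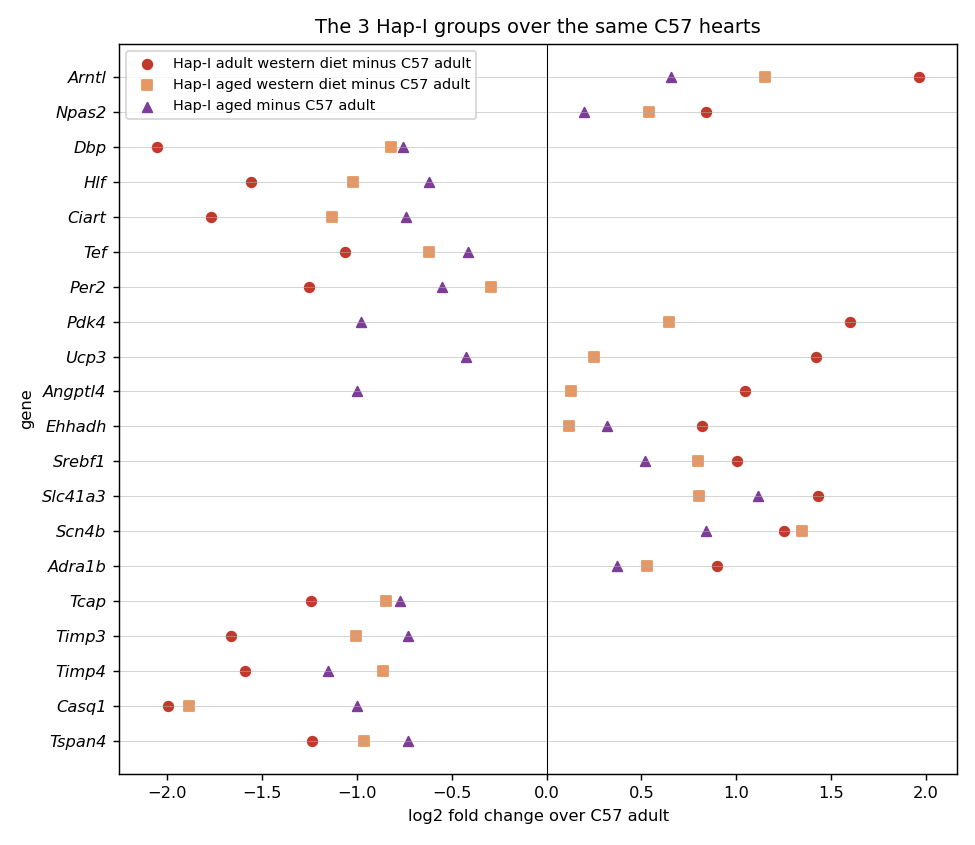
Log2 fold change of each Hap-I group over the same 3 C57 adult hearts for 20 named genes, with red circles for Hap-I adult western diet, orange squares for Hap-I aged western diet and purple triangles for Hap-I aged. Because the C57 hearts are shared, the 3 points of a gene are not independent. For Arntl and Dbp the red circle is the farthest from 0 (1.97 and -2.05), and for Pdk4 the purple triangle lies on the other side of 0 (-0.98).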

How the data were processed

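RNA sequencing of mouse heart tissue used polyadenylated RNA in a stranded library, per the labels' protocols. The authors deposited 1 table of TPM per gene, and the submitters' processing notes name kallisto, DESeq2 and GRCm38, with no version or role. TPM carry no read counts, so depth per library is unknown and no count test was run. Each TPM was divided by a median-of-ratios size factor (0.678 to 1.12 in Hap-I adult western diet libraries and 0.953 to 1.06 in C57 adult libraries).

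The filter kept genes that reached 1 TPM in 3 or more of the 16 libraries. Values of log2(scaled TPM + 1) were fitted with limma 3.58.1 in R 4.3.3, with 1 mean for each of the 4 groups, all 16 libraries and a variance trend. Tests were two-sided and p-values were Benjamini-Hochberg adjusted over 11415 genes, with calls at 0.05. The pseudocount of 1 understates the change of low genes, and every fold change is on that scale. The fit was tested on simulated data. No pair of libraries held identical values.

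Members and lists were chosen with earlier results of these data known. Genes were named as the 15 largest called changes in each direction (groups not overlapping, a mean of 5 scaled TPM or more in 1 group, with a gene symbol), 16 fixed genes, and up to 4 called members of each list (otherwise the 2 with the smallest p). A few more were named after their values were seen. Genes share 31-base words with other GRCm38 transcripts to a degree that was computed. Replicates were numbered within groups and do not pair across them. Alternatives covered scaling, pseudocount, filter, variance model, covariates, the groups fitted and each library left out. The term for atrial markers is the mean log2 level of Myl7, Myl4, Sln and Mybphl in a library, without the other atrial markers. Figures were drawn with matplotlib 3.10.9.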

Additional observations from a re-analysis of the deposited data

Results flagged for a closer look

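Among the 86 named genes, 6 had 1 Hap-I adult western diet heart far from the other 3, measured as its gap to the nearest of them over the range of the group. Chance alone sets apart about 1 in 20 groups. Replicate 2, which had the smallest size factor and the largest mitochondrial share of the group, was the one apart in 5 of these genes. It was high for Sh3glb1 (8.961 scaled TPM), Ighg2c (13.63), Rpl10 (199.4) and Rps23 (101.8) and low for Sult1a1 (12.15). Neither Rpl10 nor Rps23 was called, and 37% and 38.6% of their 31-base words occur in other transcripts. Replicate 4 was high for Klf9 (20.44). The part of that library's properties in these values was not tested.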

How the results depend on the processing

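Against 394 called genes (223 higher, 171 lower), the count was 118 without scaling (24 and 94), 122 with the nuclear transcript total as the scaling (43 and 79, added after seeing the data), 2445 with library weights (1237 and 1208), 68 with only the 2 groups fitted (35 and 33), 139 with a Y-linked term (80 and 59), 69 among libraries with Y-linked transcripts (36 and 33) and 100 with an atrial term (59 and 41). An adjusted p under 0.01 left 71 (45 and 26) and a fold change of 2 left 73 (30 and 43). Leaving out 1 library gave 78 to 484 called genes, with 43 to 243 higher and 35 to 241 lower. Leaving out aged western diet replicate 5, also added after seeing the data, gave 575 (324 and 251). Of 59 named genes that were called, 13 kept the call under every alternative and 20 in every fit without 1 library. Nppb, never called, had a log2 fold change of 0.20 as reported, -0.0397 with library weights and -0.65 among libraries with Y-linked transcripts, and of -0.35 (without C57 adult replicate 2) to 0.72 in the fits without 1 library, with -0.26 without Hap-I adult western diet replicate 2. The cause of these changes was not tested. Counts under quantile normalization, other pseudocounts, other filters, the other variance models and length correction were within 1.5 times the main one. No paired analysis was possible because the labels carry no replicate numbers shared between groups. With 4 and 3 hearts, and depth unknown, genes that were not called may still differ.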
